A study of Mus musculus with 12 samples.

Results

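The cadherin and protocadherin genes of the embryonic mouse retina were taken as the 56 protein-coding genes, of 19954 genes in the deposited table of all 12 libraries, whose symbol began with Cdh and a digit or with Pcdh. They comprised 21 Cdh and 35 Pcdh genes, and the rule used gene type and symbol alone. On chromosome 18 lay 26 of them, and the other 30 lay on other chromosomes. All 56 were looked at, 54 had a read in each of the 12 libraries, and 53 averaged at least 1 CPM, the count of a gene scaled to the library total.

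Cadherins are calcium-dependent adhesion molecules whose extracellular repeats bind the same or related cadherins on a neighbouring cell. The cytoplasmic tails of the classical type I and type II cadherins bind catenins, which connect the junction to actin, whereas protocadherins have other tails and bind more selectively. In the developing retina, N-cadherin holds the neuroepithelium together, type II cadherins mark subsets of neurons and their layers, and the clustered protocadherins act in dendrite self-avoidance and neuronal survival.

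RNA was measured in retinas of mouse embryos at E15.5 of embryonic development, labelled as strain C57BL/6, with 12 retinas pooled per library and several litters pooled. Mutant males and mutant females carried floxed Tbr2 alleles and Six3-Cre (Tbr2f/f;Six3-Cre), and wildtype males and wildtype females were the groups they were set against, with 3 libraries in each of the 4 groups, numbered 4, 5 and 6. Tbr2, listed as Eomes, is a T-box transcription factor of a subset of retinal ganglion cells, and Six3-Cre drives Cre recombinase in the developing eye field. The sources used here do not say whether wildtype embryos carried Cre or which part of the gene is floxed. The study asked which genes depend on Tbr2 at this age. Because each library is a pool, p-values measure the spread between pools and not between embryos.

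Library totals ran between 18514607 counted reads in mutant male 6 and 27072825 in wildtype female 4. Eomes averaged 19.1 ± 6.65 CPM in mutants (9.62 to 27.4) and 61.7 ± 8.77 CPM in wildtype (53.4 to 76.1; SD, n = 6 each), and its log2 fold change was -1.76 (SE 0.15, edgeR adjusted p = 0.000484). A list of 10 progenitor genes summed to between 6113 and 7608 CPM in mutants and between 5934 and 6330 CPM in wildtype, and 10 ganglion cell genes summed to between 2954 and 3252 CPM in mutants and between 2991 and 3194 CPM in wildtype, with none of these genes at 0 in any library. Abundant genes weigh most in such sums, and Ccnd1 of the progenitor list averaged 3017 CPM. By gene, 9 of the 10 ganglion cell genes had a log2 fold change below 0 (median -0.04). Of the 10 progenitor genes, 7 lay above 0 (median 0.08). In both lists 0 were called, and 47.3% of all genes tested lay above 0. Some libraries stood apart. Mutant male 6 was farthest from the rest on the leading principal component of genes of at least 1 CPM (41.5% of the variance), had the fewest genes with a read (16903) and held the highest progenitor sum, the next being 6463 CPM. The mitochondrial transcript mt-Nd6 was above 100 CPM in 5 libraries (mutant male 4, mutant female 4, wildtype male 5, wildtype females 4 and 6) and below it in the other 7. Lens transcripts varied widely between pools and leaned toward mutants, with all 13 lens genes tested above 0 (median log2 fold change 1.54) and 0 called. The lens medians were 0.64 over 13 genes in males and 2.5 over 12 in females. In females the lens list summed to 14.1, 2105 and 12.2 CPM in mutants against 233, 172 and 11.3 CPM in wildtype. The female median thus rested on mutant female 5. Lens genes rose and fell together between pools, so their signs are not independent counts. The values that touch a result are given beside it. In bulk RNA, fewer cells of a type and less RNA per cell cannot be told apart.

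Because Tbr2 binds DNA through a T-box, the promoters of the members were searched for its letters, AGGTGTGA on either strand, for the core GGTGTGA that lies within them, and for the E-box CAGGTG. The letters AGGTG end the E-box and open the T-box letters, so a stretch can hold both. RefSeq windows of 300 bases around the annotated start (GRCm38.p6) matched 22 of the 56 members, with 25 windows in all. No clustered protocadherin was among the matched members, and abundant cadherins such as Cdh11 and Cdh4 were not either. The counts of letters therefore hold for the matched members only, and the promoters of the other members were not searched. The T-box letters were in 0 of the 25 member windows, against 1.28% of 32851 windows of all genes. The core was in 1 member window, the third start site of Cdh7, against 3.98% of all windows. The E-box was in 5 member windows, which belong to Cdh7, Pcdh7 and Pcdh15, against 20.2% of all windows. The window of Cdh10 is shown because Cdh10 had the smallest p-value of the members between genotypes, and that of Cdh7 because it held the core. Capitals mark the E-box CAGGTG and the core GGTGTGA, and the Cdh10 window has no capitals because it held none of the letters searched.
Cdh10, chr15:18820079-18820378, plus strand: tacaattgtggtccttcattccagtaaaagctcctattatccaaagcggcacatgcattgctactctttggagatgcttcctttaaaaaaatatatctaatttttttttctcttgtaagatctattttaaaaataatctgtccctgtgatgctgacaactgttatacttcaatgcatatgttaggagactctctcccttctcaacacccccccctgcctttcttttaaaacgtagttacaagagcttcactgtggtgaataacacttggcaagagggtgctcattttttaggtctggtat
Cdh7, start site 3, chr1:109983473-109983772, plus strand: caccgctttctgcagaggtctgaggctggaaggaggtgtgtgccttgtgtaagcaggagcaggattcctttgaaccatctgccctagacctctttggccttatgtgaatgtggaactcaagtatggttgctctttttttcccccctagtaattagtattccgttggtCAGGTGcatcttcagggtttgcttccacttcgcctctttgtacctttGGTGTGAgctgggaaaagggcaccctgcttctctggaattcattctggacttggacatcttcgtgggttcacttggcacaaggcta
A match of letters is a description of the window and not a binding site, and no match says only that these letters are not in this window.

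The cadherin transcripts of this retina were led by a few genes. On the FPKM scale, which divides by gene length, 5 members averaged over 10, 26 lay between 1 and 10, 23 between 0.1 and 1, and 2 under 0.1. The 5 include a row read below as the whole gamma cluster, whose FPKM is uncertain. Together the members took 0.168% to 0.186% of the counted reads of a library.

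Among the type I classical cadherins, Cdh2 (N-cadherin, the main cadherin of the neuroepithelium) had the highest level of all members, at 81.0 ± 5.51 FPKM in mutants and 82.2 ± 7.29 FPKM in wildtype (SD, n = 6 each). Cdh4 (R-cadherin, first described in chick retina) averaged 30.9 ± 3.15 FPKM in mutants and 27.9 ± 1.49 FPKM in wildtype. Cdh3 (P-cadherin) was near 1, at 0.812 ± 0.157 FPKM in mutants and 0.977 ± 0.145 FPKM in wildtype. Cdh2 thus lay far above Cdh4, and Cdh4 far above Cdh3, with no overlap between these genes in any library. Cdh15 (M-cadherin, of muscle) averaged 0.15 ± 0.0883 FPKM in mutants and 0.173 ± 0.103 FPKM in wildtype.

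Among the type II cadherins, Cdh11 was highest, at 65.4 ± 7.84 FPKM in mutants and 66.8 ± 4.71 FPKM in wildtype. Cdh20 averaged 20.6 ± 1.16 FPKM in mutants and 19.2 ± 0.709 FPKM in wildtype, and was the steadiest member, with a coefficient of variation of 5.86% over the 12 libraries. Cdh22 came next, at 8.44 ± 1.39 FPKM in mutants and 7.24 ± 0.915 FPKM in wildtype. Cdh24 and Cdh6 overlapped across libraries, with means of 6.30 and 4.81 FPKM over all 12. Cdh5 (VE-cadherin, of vessel walls) averaged 3.71 ± 0.552 FPKM in mutants and 3.87 ± 0.664 FPKM in wildtype. Cdh8, Cdh18, Cdh9, Cdh10 and Cdh7 followed with means between 1.02 and 2.01 FPKM and ranges that overlapped. Cdh12 averaged 0.261 FPKM, and Cdh19 was at most 0.102 FPKM and listed at 0 in mutant male 6 and wildtype male 6.

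The atypical cadherins were low. Cdh13 (T-cadherin, held to the membrane by a lipid anchor) averaged 1.80 ± 0.297 FPKM in mutants and 1.67 ± 0.204 FPKM in wildtype, whereas Cdh26 and Cdh23 averaged 0.129 and 0.0942 FPKM over all libraries. Cdh23 and Pcdh15 form the tip link of hair cells, and Pcdh15, at 0.707 FPKM, was above Cdh23 in every library.

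The non-clustered protocadherins lay in a middle band. In the delta-1 group, Pcdh1 averaged 7.16 ± 0.854 FPKM in mutants and 6.47 ± 0.497 FPKM in wildtype, with Pcdh7 and Pcdh9 at means of 5.70 and 4.73 FPKM over the 12 libraries. In the delta-2 group, whose tails bind a regulator of actin, Pcdh19, Pcdh18 and Pcdh17 had means of 5.98, 5.80 and 4.61 FPKM, and their ranges overlapped, while Pcdh8 and Pcdh10 were lower at 2.18 and 1.79 FPKM. Pcdh17 was also steady, with a coefficient of variation of 6.08%. X-linked Pcdh11x (0.438 FPKM), Pcdh20 (0.837 FPKM) and the endothelial Pcdh12 (0.576 FPKM) were all under 1.

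The clustered protocadherins are listed unevenly in the deposited table, which bears on what their values are. A single row called Pcdha10 spans 36930285 to 37187657 on chromosome 18 (mm10, plus strand), the stretch of the alpha cluster, and a single row called Pcdhga12 spans 37674335 to 37841873, most of the gamma cluster. Each is read here as a row for its cluster, since the isoforms in it cannot be separated. The deposited lengths of these rows are 5422 bases for alpha and 5080 bases for gamma. How many isoforms those lengths cover is not given, so the FPKM of either row beside that of single genes is uncertain. In between, 21 beta genes from Pcdhb2 to Pcdhb22 have a row each. They are near-similar copies, so the assignment of reads among them is uncertain. The gamma row had 64.4 ± 6.70 FPKM in mutants and 64.1 ± 3.33 FPKM in wildtype, the alpha row 7.94 ± 0.408 FPKM in mutants and 8.08 ± 1.01 FPKM in wildtype, and the highest beta gene, Pcdhb17, 3.37 ± 0.522 FPKM in mutants and 3.97 ± 0.726 FPKM in wildtype. Pcdhb7 and Pcdhb22 followed at means of 2.43 and 2.33 FPKM, and the lowest beta gene was Pcdhb13 at 0.303 FPKM.

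**Figure D1:**
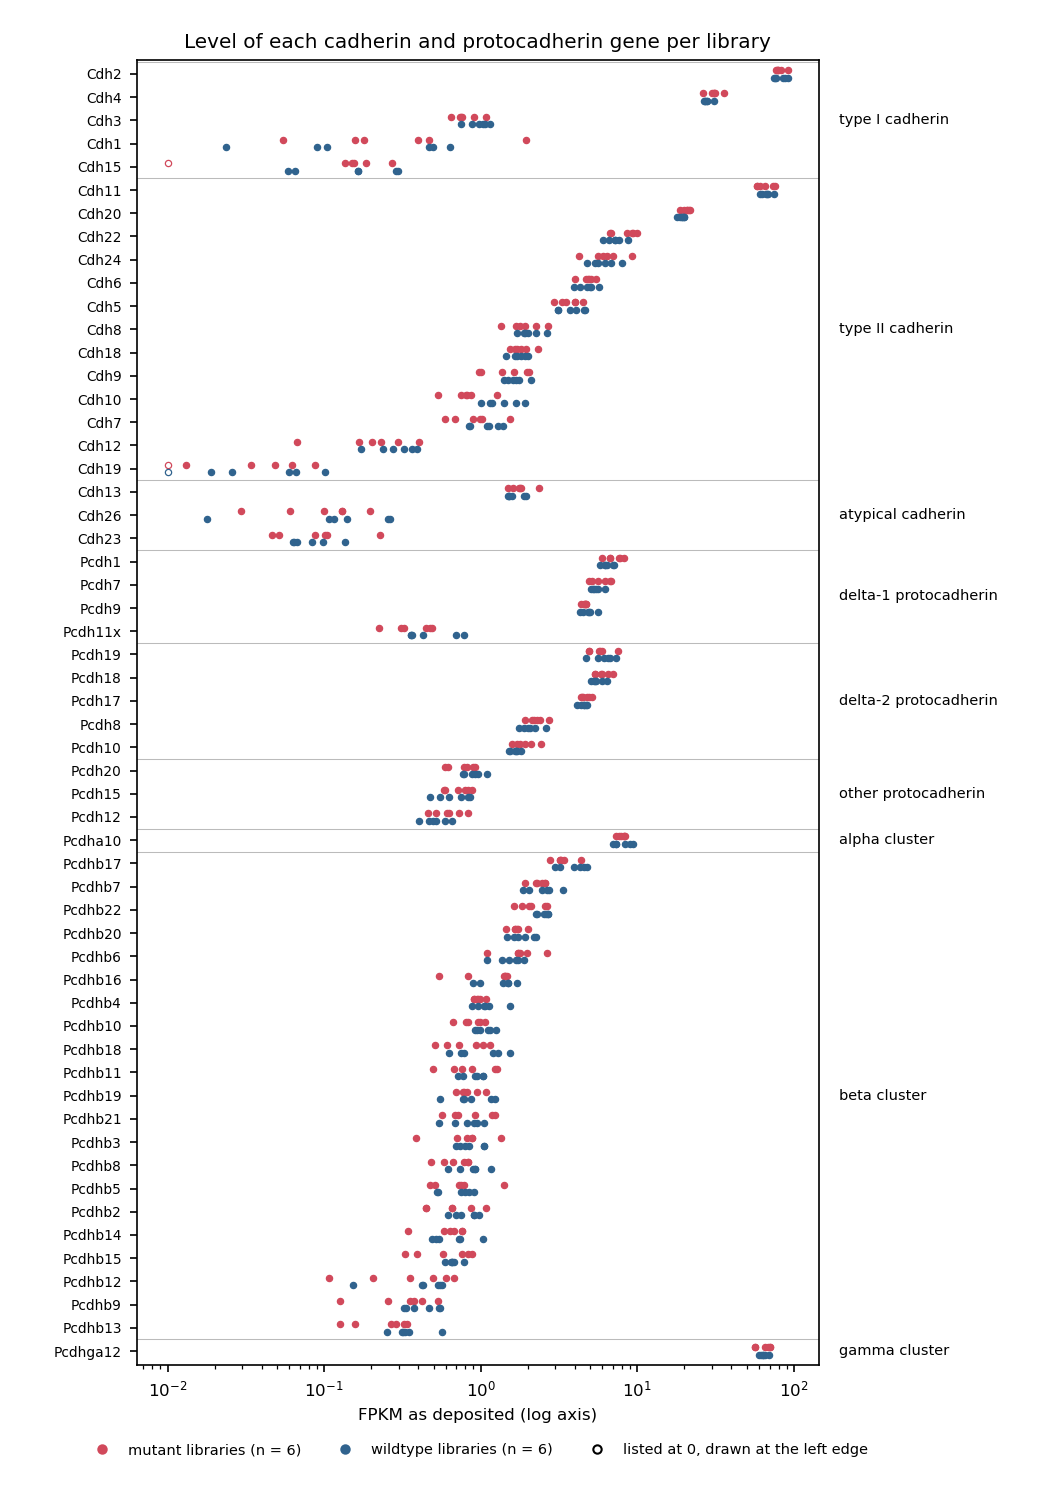
Deposited FPKM of the 56 genes in each library on a log axis, ordered by family and mean, with mutants in red just above wildtype in blue and open points for values listed at 0. Cdh2, Cdh11, the gamma row, Cdh4 and Cdh20 stood above 10 FPKM, and mutant and wildtype points overlapped for all 56 genes.

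Between mutants and wildtype of both sexes, no cadherin or protocadherin passed the threshold. With sex as a term, 0 of the 55 members tested had an edgeR adjusted p under 0.05, against 0.0259% of the 15467 genes tested, 4 genes in all. Cdh19 did not pass the filter on low counts. At an unadjusted p under 0.05 there was 1 member, Cdh10, or 1.82% of those tested, against a background of 2.92% of all genes tested. Cdh10 was lower in mutants, as were 1.5% of all genes at that p. DESeq2 and limma voom each called 0 members at an adjusted p and 1 at an unadjusted p. The authors' deposited table called 0 of the 56 members in this comparison and 15 genes in all. In none of the 55 did the 6 mutant libraries lie wholly apart from the 6 wildtype ones, against a background of 0.207%, and in none did they lie apart within each sex in the same direction, against 0.394%.

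The intervals bound how large a difference could have been missed. The 95% interval of the log2 fold change lay within 1 on either side of 0 in 47 of 55 members and within 0.5 in 27. The 8 that went past 1 were Cdh1, Cdh10, Cdh12, Cdh15, Cdh23, Cdh26, Pcdhb9 and Pcdhb13, of which Cdh15 and Cdh26 averaged under 1 CPM. For the 6 members highest in FPKM, the alpha and gamma rows among them, the intervals lay within 0.5. Cdh2 had a log2 fold change of -0.03 (95% interval -0.19 to 0.14), Cdh11 of -0.04 (-0.22 to 0.15), Cdh4 of 0.14 (-0.0042 to 0.29), Cdh20 of 0.09 (-0.02 to 0.21), the alpha row of -0.03 (-0.21 to 0.15) and the gamma row of 0.00 (-0.13 to 0.14).

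**Figure D2:**
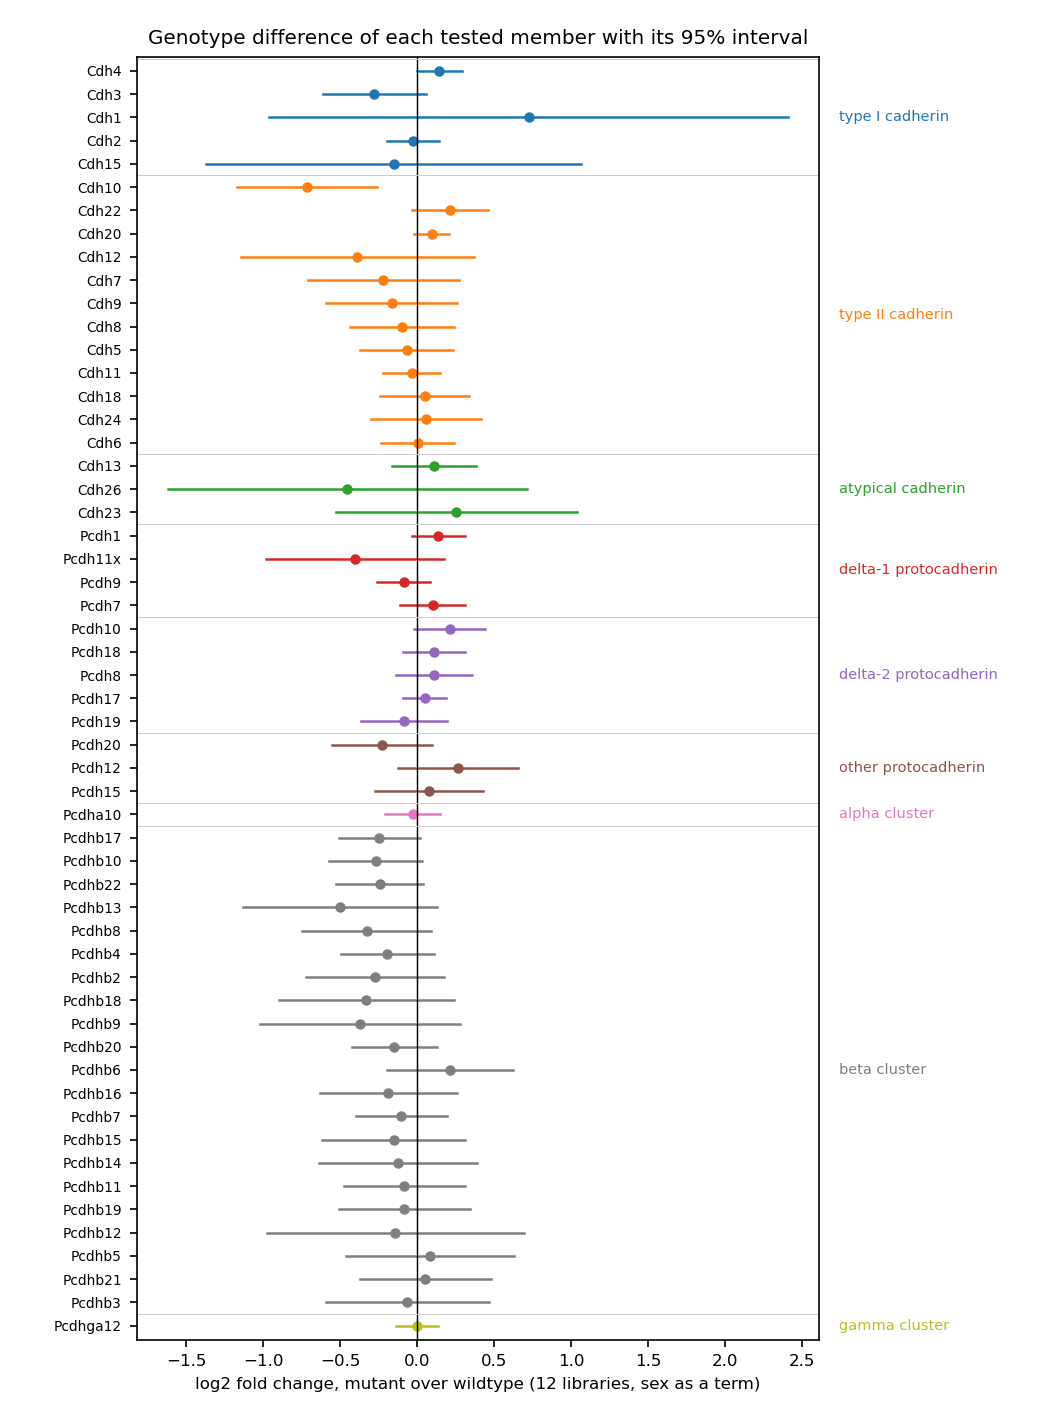
The log2 fold change of mutant over wildtype for the 55 genes tested, with its 95% interval from the edgeR fit with sex as a term, grouped by family. The interval of Cdh10 is the only one that excludes 0 before adjustment for the number of genes, and 18 of the 21 beta genes lie left of 0.

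Cdh10, a type II cadherin of the nervous system, was the member with the smallest p-value. It had 4.81, 3.05 and 2.0 CPM in mutant males and 2.84, 3.08 and 3.25 CPM in mutant females, against 7.23, 4.45 and 5.29 CPM in wildtype males and 3.77, 4.32 and 6.34 CPM in wildtype females. In females the mutant libraries were all below the wildtype ones, and in males mutant male 4 was above wildtype male 5. The fitted log2 fold change was -0.72 (SE 0.21, 95% interval -1.17 to -0.26), with an unadjusted p of 0.00472 and an adjusted p of 0.918 by edgeR over all genes. The lowest adjusted p over the alternatives was 0.422. In the authors' deposited table its log2 fold change was -0.30965 with a p of 0.00080064 and an adjusted p of 0.43855. The DESeq2 fit run here gave -0.71 (SE 0.22). How the authors' fold change was scaled is not known here, so its size is not compared with these. Between 37 and 139 reads per library lay behind these values. Over both sexes the log2 fold change was -0.39 in the libraries high in mt-Nd6 and -0.95 in those low in it. In females alone the order was the other way, at -0.80 in the high and -0.43 in the low ones. Each female value rests on a single library of 1 genotype, mutant female 4 in the high set and wildtype female 5 in the low set. The part of that split in the result was not tested.

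Of the other classical cadherins, Cdh4 was the nearest to the threshold among those higher in mutants. Its lowest, median and highest values were 167, 197 and 230 CPM in mutants and 171, 176 and 197 CPM in wildtype, so the ranges overlapped, and its log2 fold change was 0.14 (SE 0.07, edgeR adjusted p = 0.918), or 0.09 without mutant male 6 and 0.06 within the mt-Nd6-high libraries. Cdh22 had 24.7, 33.1 and 36.9 CPM in mutants and 22.3, 26.8 and 32.1 CPM in wildtype, with a log2 fold change of 0.21 (SE 0.11), and its sign turned in the 5 libraries high in mt-Nd6, to -0.14, against 0.46 within the low ones. Cdh20 gave 0.09 (SE 0.05). Cdh3 had 2.56, 2.99 and 4.29 CPM in mutants and 2.97, 4.02 and 4.57 CPM in wildtype, with a log2 fold change of -0.28 (SE 0.16). None of these differences passed the threshold, and all 4 had an edgeR adjusted p of 0.918. Of the 12 type II cadherins tested, 5 had a log2 fold change above 0 and 7 below, with a median of -0.05, beside -0.01 over all genes tested.

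The delta protocadherins did not pass the threshold either, and 4 of the 5 delta-2 genes had a log2 fold change above 0 (median 0.11). Pcdh10, of the delta-2 group, had 13.2, 15.3 and 20.2 CPM in mutants and 12.6, 13.8 and 15.0 CPM in wildtype as lowest, median and highest, and a log2 fold change of 0.21 (SE 0.11, edgeR adjusted p = 0.918). Without mutant male 6, its highest library, the log2 fold change was 0.13. Pcdh1 had 32.4, 38.8 and 44.7 CPM in mutants and 31.3, 34.4 and 38.3 CPM in wildtype, with a log2 fold change of 0.14 (SE 0.08), of 0.09 without mutant female 6 and of -0.01 in the mt-Nd6-high libraries alone. Mutant and wildtype ranges overlapped for both genes. Pcdh12, an endothelial protocadherin, had a log2 fold change of 0.27 (SE 0.18, adjusted p = 0.918), or 0.16 without mutant male 6, and Cdh5, of the same cells, -0.07 (SE 0.14, adjusted p = 0.937). A list of 8 other vessel genes summed to between 216 and 253 CPM in mutants and between 213 and 243 CPM in wildtype, with none at 0 in any library. Most of that sum was Kdr, with a mean of 182 CPM (167 to 199), while the next gene, Cldn5, averaged 12.9 CPM. The sum therefore says little about the other vessel genes. Of the 12 non-clustered protocadherins, 8 had a log2 fold change above 0 and 4 below, with a median of 0.09, where 47.3% of all genes tested lay above 0.

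The beta cluster was the family with the most members on one side. Of its 21 genes, 18 had a log2 fold change below 0 in mutants and 3 above (Pcdhb5, Pcdhb6 and Pcdhb21), with a median of -0.15 and 0 called, where 52.7% of all genes tested lay below 0. These genes lie side by side and share similar sequence, so their signs are not independent counts. The summed beta cluster had 81.9, 72.7 and 69.9 CPM in mutant males and 88.9, 84.6 and 97.1 CPM in mutant females, against 76.2, 105.9 and 76.9 CPM in wildtype males and 93.5, 89.6 and 102.6 CPM in wildtype females. It averaged 82.5 ± 10.1 CPM in mutants and 90.8 ± 12.5 CPM in wildtype (SD, n = 6 each), and the ranges overlapped in both sexes. The alpha row averaged 43.1 ± 2.21 CPM in mutants and 43.8 ± 5.46 CPM in wildtype, and the gamma row 327 ± 34.1 CPM in mutants and 326 ± 16.9 CPM in wildtype.

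The single beta genes given next were named for small p-values among the members lower in mutants, and they are parts of the sum. Their direction was thus fixed by that choice, and none passed the threshold. Pcdhb17 had 9.13, 10.6 and 14.2 CPM in mutants and 9.82, 13.4 and 15.6 CPM in wildtype as lowest, median and highest, with a log2 fold change of -0.24 (SE 0.12, edgeR adjusted p = 0.918). It was -0.15 without wildtype male 5, -0.13 without the 3 libraries highest in Cryaa, -0.47 within the mt-Nd6-high libraries and -0.07 within the low ones. The log2 fold change was -0.27 (SE 0.14) for Pcdhb10, -0.24 (SE 0.13) for Pcdhb22 and -0.50 (SE 0.29) for Pcdhb13, all at the same adjusted p. The libraries overlapped between genotypes for all 4. Pcdhb22 was -0.10 without the 3 libraries highest in Cryaa. For Pcdhb13, wildtype female 6 at 2.10 CPM stood above every other library, and the log2 fold change without it was -0.33.

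Which libraries were compared moved the count of beta genes more than the choice of tool did. It was 18 below 0 with DESeq2, with limma voom and with the block on replicate number. It was 13 without the 3 libraries highest in the lens gene Cryaa, 14 within the libraries low in mt-Nd6, and 15 without mutant male 6 or without wildtype male 5. Mutant male 6 was the lowest library for 10 of the 21 beta genes and for 19 of the 56 members, and wildtype male 5 the highest for 5 beta genes. Mutant male 6 also stood apart over all genes, and the share of all genes lowest in it was not counted. Whether these counts are particular to the members is therefore not known, and they are given as a description. The summed beta cluster averaged 94.6 ± 9.83 CPM in the 5 libraries high in mt-Nd6 and 81.0 ± 9.82 CPM in the 7 low in it, while the gamma row averaged 304 ± 19.2 CPM in the high set and 342 ± 16.1 CPM in the low set. In the high set, 19 of 21 beta genes and 40 of 56 members had the higher mean, against 39.4% of 13701 genes of at least 1 CPM. These sets were drawn from the data and not by the study, 3 of the 5 high libraries were wildtype, and the part of the split in the genotype values was not tested.

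**Figure D3:**
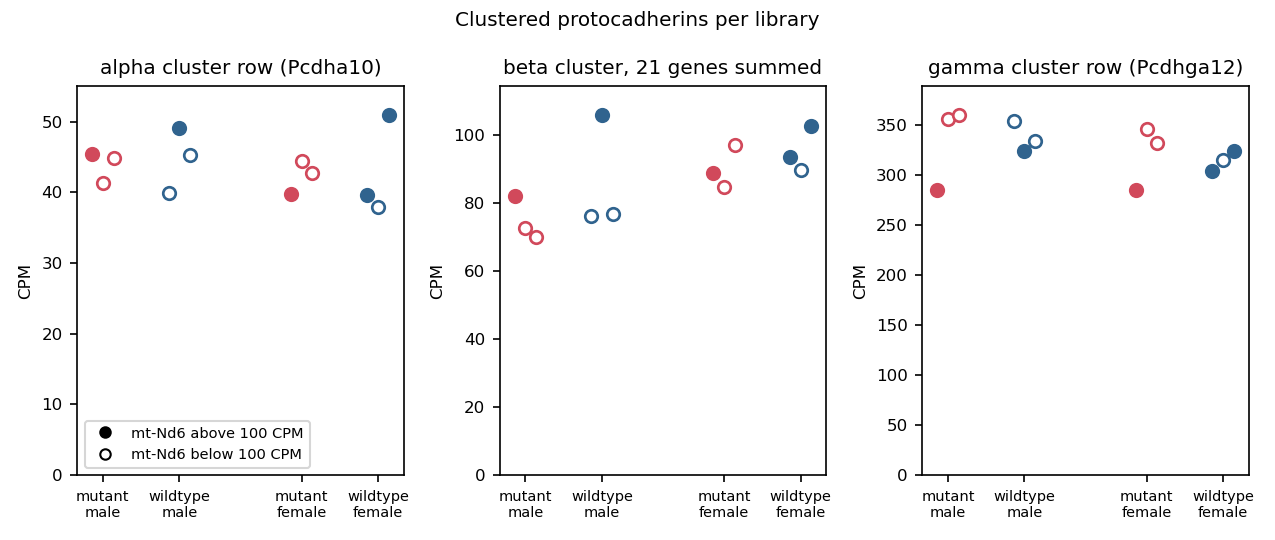
CPM of the alpha row, the 21 summed beta genes and the gamma row in each library by genotype and sex, with filled points for the 5 libraries above 100 CPM of mt-Nd6. Mutant and wildtype points overlap in each panel, the filled points lie between 81.9 and 105.9 CPM in the beta panel, and the filled mutant points, at 285 CPM each, are the lowest of the gamma panel.

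In males alone, 0 of the 53 members tested passed an adjusted p of 0.05 by edgeR, as did 0% of the 14945 genes tested, and 0 had an unadjusted p under 0.05, against a background of 1.41%. The targeted gene Eomes did not pass in males either, with a log2 fold change of -1.43 (SE 0.16, edgeR adjusted p = 0.295). That no member passed in males therefore says little about differences of that size or smaller. DESeq2 and limma voom each called 0 at an adjusted p and 1 at an unadjusted p. The authors' deposited table of males called 0 of the 56 members and 6 genes in all. Mutant and wildtype males did not overlap in 3 members, 5.66% of those tested, beside 5.38% of all genes tested. Pcdh20 had 4.10, 4.29 and 3.08 CPM in mutant males against 4.83, 5.74 and 5.04 CPM in wildtype males, with a log2 fold change of -0.44 (SE 0.21, adjusted p = 0.994). Pcdhb2 had 1.24, 1.81 and 1.24 CPM in mutant males against 2.08, 2.5 and 1.93 CPM in wildtype males (-0.60, SE 0.29, adjusted p = 0.994). Pcdhb15 was the other one. In all 3 the mutant males were the lower ones. Cdh10 had a log2 fold change of -0.77 (SE 0.34, adjusted p = 0.994) in males, which was -1.16 without mutant male 4 and -0.51 without mutant male 6. Of the 21 beta genes 18 lay below 0, with a median of -0.27, where 51.2% of all genes tested lay above 0. The count was 11 without the 3 libraries highest in Cryaa. It was also 11 without wildtype male 5 alone, which is among those 3.

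In females alone, 0 of the 53 members tested passed an adjusted p of 0.05 by edgeR, against 0.00669% of the 14956 genes tested, which was 1 gene. That gene was Eomes, with a log2 fold change of -2.08 (SE 0.18, edgeR adjusted p = 0.0271). Cdh3, Cdh4, Cdh10 and Pcdh1 had an unadjusted p under 0.05, 7.55% of the members tested against a background of 2.63%. DESeq2 gave 3 such members and limma voom 4, with 0 at an adjusted p by either, and the authors' deposited table of females called 0 of the 56 members and 9 genes in all. Cdh3 had 3.02, 2.56 and 2.91 CPM in mutant females against 4.14, 4.57 and 3.90 CPM in wildtype females, a log2 fold change of -0.57 (SE 0.19, adjusted p = 0.986). Cdh4 had 192, 197 and 202 CPM in mutant females against 177, 174 and 171 CPM in wildtype females (0.18, SE 0.06, adjusted p = 0.986). Cdh10 gave -0.65 (SE 0.24, adjusted p = 0.986), and -0.40 without wildtype female 6. Pcdh1 had 36.2, 36.0 and 44.7 CPM in mutant females against 33.9, 33.9 and 31.3 CPM in wildtype females (0.23, SE 0.10, adjusted p = 0.986).

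All 4 of these genes were among the 8 members whose mutant and wildtype females did not overlap, 15.1% of those tested, beside 8.09% of all genes tested. The others were Pcdhb6, Pcdhb8, Pcdhb13 and Pcdhb15. For Pcdhb6 the mutant females were higher, at 4.26, 4.83 and 6.50 CPM against 4.10, 3.35 and 3.75 CPM in wildtype females. Of the 21 beta genes, 14 lay below 0 in females, with a median of -0.10, where 48.3% of all genes tested lay above 0.

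**Figure D4:**
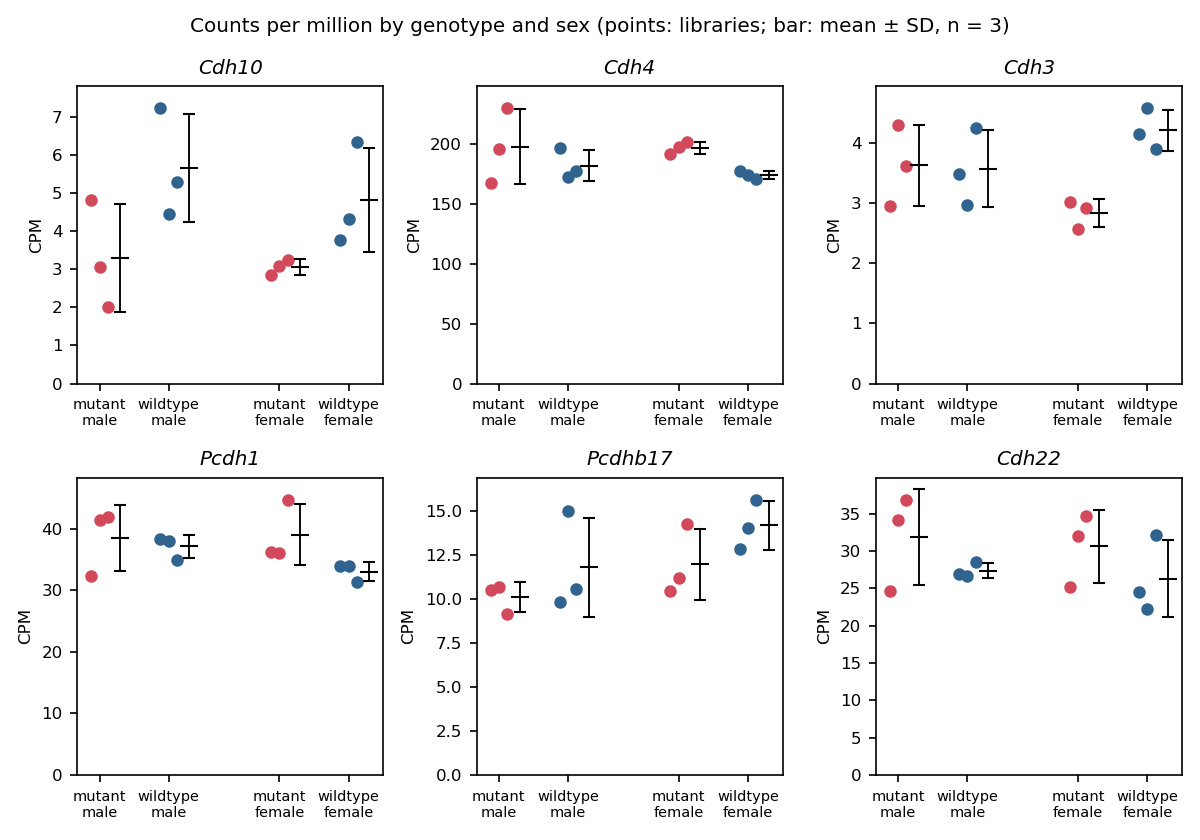
CPM of Cdh10, Cdh4, Cdh3, Pcdh1, Pcdhb17 and Cdh22 in each library by genotype and sex, with the mean and SD of each group of 3 beside its points. Cdh10, Cdh4, Cdh3 and Pcdh1 separate mutant from wildtype females, and all 6 genes overlap between genotypes in males.

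Whether the genotype difference itself differed between the sexes was tested as an interaction over all 12 libraries. By edgeR 0 of 55 members passed an adjusted p of 0.05, as did 0% of the genes tested, and 3 had an unadjusted p under 0.05 (Cdh26, Pcdhb15 and Pcdhb3), 5.45% against a background of 1.73%. DESeq2 and limma voom each gave 0 and 3. Above 0 lay 36 of the 55 members, where 48.7% of all genes tested did. Pcdhb15 had 1.10, 1.60 and 0.918 CPM in mutant males against 1.66, 2.19 and 1.85 CPM in wildtype males, while in females it had 2.13, 2.31 and 2.48 CPM in mutants against 1.88, 1.83 and 1.80 CPM in wildtype. The mutants were thus wholly below wildtype in males and wholly above in females, and the interaction was 0.99 on the log2 scale (SE 0.35, unadjusted p = 0.0147, adjusted p = 1.0). Between 17 and 56 reads per library lay behind it. For Pcdhb3 the interaction was 0.97 (SE 0.43) and for Cdh3 -0.59 (SE 0.28, and -0.29 without the 3 libraries highest in Cryaa), both with an edgeR adjusted p of 1.0. Cdh26, a low member with 1 to 15 reads per library, had the largest interaction of the members, -2.61 (SE 0.85, adjusted p = 1.0). It had 0.381, 0.569 and 0.378 CPM in mutant males against 0.0520, 0.313 and 0.336 CPM in wildtype males, and 0.177, 0.0855 and 0.291 CPM in mutant females against 0.406, 0.762 and 0.749 CPM in wildtype females, so that mutants were above wildtype in males and below in females.

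Females were then set against males over all 12 libraries, with genotype as a term. None of the 55 members passed an adjusted p of 0.05 by edgeR (0, against 0.0129% of 15467 genes tested, 2 genes). At an unadjusted p under 0.05 there were 4, all of the beta cluster and all higher in females (Pcdhb11, Pcdhb16, Pcdhb17 and Pcdhb21), 7.27% of the members against a background of 2.79%, and 1.22% of all genes were higher in females at that p. DESeq2 gave 4 and limma voom 5 at an unadjusted p, with 0 at an adjusted p by either. Pcdhb11 averaged 3.78 ± 0.604 CPM in females and 2.69 ± 0.639 CPM in males, a log2 fold change of 0.51 (SE 0.18, adjusted p = 0.879). For Pcdhb16 the means were 7.81 ± 0.637 CPM in females and 5.44 ± 1.93 CPM in males (0.54, SE 0.21, but 0.07 in the mt-Nd6-high libraries), and for Pcdhb17 they were 13.1 ± 1.96 CPM in females and 10.9 ± 2.07 CPM in males (0.27, SE 0.12; SD, n = 6 each). In every member some female library overlapped some male library, where 0.2% of all genes tested did not overlap.

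Over the beta cluster, 18 of 21 genes had a log2 fold change above 0 in females, with a median of 0.20, where 50.9% of all genes tested lay above 0. The summed cluster averaged 92.7 ± 6.45 CPM in females and 80.6 ± 13.1 CPM in males, and the gamma row 318 ± 21.5 CPM in females and 335 ± 28.3 CPM in males. In the 5 mt-Nd6-high libraries alone the count was 12 of 21, and Pcdhb17 gave -0.03. Both X-linked members were close to 0. Pcdh19, an X-linked delta-2 protocadherin whose human gene is linked to an epilepsy of females, averaged 63.1 ± 9.35 CPM in females and 59.8 ± 9.90 CPM in males (0.10, SE 0.13, adjusted p = 0.880). Pcdh11x averaged 3.85 ± 1.16 CPM in females and 3.75 ± 1.69 CPM in males (0.07, SE 0.27, adjusted p = 0.955). Between genotypes, Pcdh19 had a log2 fold change of -0.09 (SE 0.13) and Pcdh11x of -0.40 (SE 0.27), both past no threshold.

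Cdh1 (E-cadherin, the cadherin of surface epithelia and of the lens epithelium) varied most over the libraries. It had 1.76, 2.07 and 0.702 CPM in mutant males and 0.798, 8.63 and 0.243 CPM in mutant females, against 0.104, 2.81 and 0.462 CPM in wildtype males and 2.07, 2.18 and 0.400 CPM in wildtype females. Mutant female 5 was the highest, with 202 reads, and wildtype male 4 the lowest, with 2 reads. The log2 fold change between genotypes was 0.72 (SE 0.78, edgeR adjusted p = 0.918), and without mutant female 5 it was -0.39.

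The lens list varied beside it. Its 15 genes found in the table summed to between 5.46 and 2105 CPM in mutants and between 10.9 and 870 CPM in wildtype, with 8 of the 15 at 0 in some library. The 6 libraries with a lens sum over 100 CPM were the 6 with Cdh1 above 1 CPM. Without the 3 libraries highest in Cryaa the Cdh1 log2 fold change was 0.02. A surface ectoderm list of 6 genes, 3 of them at 0 in some library, summed to between 7.73 and 16.6 CPM in mutants and between 10.5 and 15.1 CPM in wildtype, and was lowest in mutant female 5. The part of lens RNA in the Cdh1 values was not tested. After Cdh1, the largest ratios of highest to lowest library among members of at least 1 CPM were 6.30 for Pcdhb12 (6 to 46 reads) and 5.98 for Cdh12 (7 to 57 reads).

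**Figure D5:**
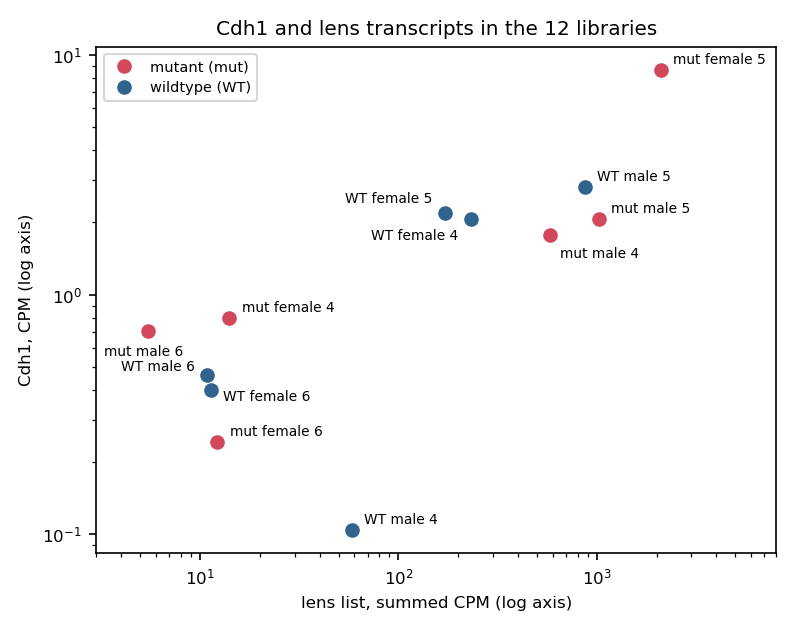
CPM of Cdh1 against the summed CPM of the lens list in each of the 12 libraries, both on log axes, mutants in red and wildtype in blue. The 6 libraries with the higher lens sums have 1.76 to 8.63 CPM of Cdh1, the other 6 have 0.104 to 0.798 CPM, and each set holds mutant and wildtype libraries.

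The partners of the cadherins did not pass the threshold either. Of 15 catenins, nectins and other junction genes tested, 0 were called in either direction by edgeR in the comparison of both sexes, 11 lay above 0 and 4 below, and the median log2 fold change was 0.03. Over all genes tested, 0.0259% were called, 47.3% lay above 0 and the median was -0.01. With so few genes called, 0 called in a list of this size says little about its genes. The 2 with the smallest p-values were Ctnna2, the neuronal alpha-catenin, at 105 ± 8.62 CPM in mutants and 113 ± 3.50 CPM in wildtype (-0.12, SE 0.06, adjusted p = 0.918), and Ctnnd2, delta-catenin, at 213 ± 19.8 CPM in mutants and 202 ± 5.20 CPM in wildtype (0.07, SE 0.06, adjusted p = 0.918). Ctnnb1, beta-catenin, averaged 1273 ± 39.1 CPM in mutants and 1242 ± 33.5 CPM in wildtype (SD, n = 6 each).

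Other genes of the cadherin superfamily, such as the Celsr, Fat and Dchs genes of planar polarity and the calsyntenins, numbered 16 tested, with 11 above 0, 5 below, 0 called and a median of 0.09. Beside this list and the lists that follow, 0.0259% of all genes tested were called and 47.3% lay above 0. Clstn2, a synaptic calsyntenin, averaged 9.93 ± 1.60 CPM in mutants and 13.6 ± 2.43 CPM in wildtype, with a log2 fold change of -0.45 (SE 0.10, unadjusted p = 0.000809, adjusted p = 0.834 by edgeR). Ret, a receptor tyrosine kinase with cadherin-like repeats, averaged 132 ± 7.66 CPM in mutants and 120 ± 7.34 CPM in wildtype (0.14, SE 0.05, adjusted p = 0.918). Of 11 regulators of the clustered promoters, 3 lay above 0, 8 below and 0 were called (median -0.04), with Dnmt1, the maintenance DNA methyltransferase, at 0.10 (SE 0.06) and Stag2, a cohesin subunit, at -0.29 (SE 0.24). Of 14 effectors, 5 lay above 0, 9 below and 0 were called (median -0.05), with the GTPase Rac1 at 0.11 (SE 0.05) and the focal adhesion kinase Ptk2 at -0.09 (SE 0.05). Of 3 tested repressors of E-cadherin, 1 lay above 0, 2 below and 0 were called (median -0.16), with Zeb2 at -0.16 (SE 0.11) and Snai2 at -0.35 (SE 0.31).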

How the data were processed

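RNA-seq of 12 pooled retina libraries was analysed. Per the submitters' processing notes, CASAVA, STAR 2.5 (mm10), HTSeq 0.6.1 and DESeq2 were used. The sources used here do not state the annotation release or the strand setting, so whether reads of genes on opposite strands were counted apart is not known. Per the file headers, the authors deposited raw read counts per gene and library, a normalised signal, FPKM, and log2 fold changes with p-values of their own comparisons. Tests used the counts of the 12-library table with edgeR 4.0.16 (TMM, filterByExpr, quasi-likelihood, two-sided, Benjamini-Hochberg over all genes tested, threshold 0.05) in R 4.3.3. SE was computed as the absolute log2 fold change divided by the square root of F. DESeq2 1.42.0 and limma 3.58.1 (voom) were alternatives. CPM was the count over the library total. Members named were the 3 highest in FPKM of each family, those with the smallest p-values in each comparison, the 3 of largest range and the X-linked ones, others after their values were seen. Members, lists and comparisons were chosen with earlier results of these data known. Same-numbered libraries of a sex deviated together in females (correlations 0.30, 0.35 and 0.21 for numbers 4, 5 and 6), which pairs them by the rule of 0.1 in every pair, but not in males (-0.31, 0.03 and 0.44). The tests were tried on simulated data.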

Additional observations from a re-analysis of the deposited data

Results flagged for a closer look

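Groups of 6 libraries were searched for a single library far from the other 5, by a gap test at the 95% level, for the 36 named members in each genotype. Of 72 such groups 5 stood out. Some members, Cdh1 and Pcdhb12 among them, were named for their range or p-value in these same libraries. The rate of about 1 in 20 by chance therefore does not hold for this set, and the 5 are given as a description. Cdh4 was 196.8 CPM in wildtype male 4, above the 171 to 177 CPM of the other wildtype libraries. Cdh23 was 2.54 CPM in mutant male 5, above the 0.513 to 1.15 CPM of the other mutants. Cdh1 was 8.63 CPM in mutant female 5, above the 0.243 to 2.07 CPM of the other mutants. Pcdhb13 was 2.10 CPM in wildtype female 6, above the 0.936 to 1.29 CPM of the other wildtype libraries. Pcdhb12 was 0.462 CPM in wildtype male 6, below the 1.29 to 1.73 CPM of the other wildtype libraries.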

How the results depend on the processing

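No member was called at an adjusted p of 0.05 under any alternative run (22 settings for both sexes, 15 for males, 16 for females, 22 for the interaction, 22 for female against male): 0 with another scaling or tool, 0 with each library left out in turn, and 0 with the replicate block in each comparison. Members with an unadjusted p under 0.05 ranged from 1 to 6, 0 to 6, 1 to 9, 0 to 7 and 0 to 6 in that order. The shares of all genes ranged with them, from 1.61% to 11.7%, 0.768% to 12.1%, 1.22% to 14.3%, 1.2% to 5.64% and 1.84% to 12.6%. The highest count in females came within the mt-Nd6-high libraries, where mutant female 4 was the only mutant, so that count rests on a single mutant library. Of 511 recomputed log2 fold changes of 25 results, 506 kept their direction and 5 reversed. Within the libraries high in mt-Nd6, chosen after seeing the data, Cdh22 was -0.14, Pcdh1 -0.0127 and Cdh1 -0.68 between genotypes, and Pcdhb17 was -0.0348 in females against males. With each library left out in turn, Cdh1 was between -0.39 (without mutant female 5) and 1.47 (without wildtype male 5). The cause was not tested. Males within the libraries high in mt-Nd6 could not be fitted, with 1 library per genotype. Cdh15 and Cdh26, under 1 CPM, had at most 17 and 15 reads in a library, and differences within their intervals, which reached past 1 on the log2 scale, were not detectable here.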
